A study of Mus musculus with 4 samples.

Results

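The Hox genes of the 4 mouse clusters were chosen by name, as every row of the count table whose gene symbol is Hoxa, Hoxb, Hoxc or Hoxd followed by a number. The choice gave 39 genes among 37620 rows, with 11 genes in the Hoxa cluster, 10 in Hoxb, 9 in Hoxc and 9 in Hoxd. They stand in 40 rows because Hoxa3 carries a pair of Ensembl identifiers. RNA-seq counts came from 4 libraries of mouse embryonic stem cells (mESCs), 2 named WT_CTCF and 2 named MUT_CTCF. Both lines derive from mESCs whose endogenous CTCF carries an EGFP and auxin-inducible degron tag. In both, auxin removed the tagged protein and a vector supplied CTCF in its place, the wild-type form in WT_CTCF mESCs and a form with alanine at residue T668, where it cannot carry O-GlcNAc, in MUT_CTCF mESCs. Each line was grown from a picked clone selected with hygromycin, on gelatin-coated dishes with LIF and serum. A difference between the groups and a difference between these clones therefore cannot be told apart. The comparison asks whether Hox transcript levels differed between the lines and whether the answer changed with the cluster or with the place in it.

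Hox genes encode homeodomain transcription factors that give body segments their identity along the head to tail axis. Each cluster arose by duplication of an ancestral one, so that genes of 1 number in different clusters, a paralog group, are generally more alike than neighbours are. Genes of low number lie at the 3′ end of a cluster and are the first to be switched on in the embryo, and genes of high number lie at the 5′ end and act in posterior structures. In mESCs the clusters are held largely silent by Polycomb group proteins, and CTCF sites within the clusters are known boundaries between active and silent chromatin in differentiated cells.

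The homeobox, the coding stretch for the DNA-binding homeodomain, is the part in which Hox genes are most alike, and so the part where a read could be placed on the wrong member. A homeobox of 180 bases was found in each of the 39 genes, in 1 exon in every case. Between genes of a paralog group, 42 pairs had a median identity of 80.6% (67.2% to 93.9%), against 61.7% (48.3% to 88.9%) for 172 pairs within a cluster and 60.6% for 527 pairs that share neither. The homeoboxes of the pair of tested genes with the smallest p-values, Hoxb7 and Hoxc12, are shown with that of Hoxd12, a paralog of Hoxc12. That of Hoxb7 was 88.9% identical to the homeobox of its neighbour Hoxb6, which is not shown. Sequences are from mm9, 5′ to 3′ on the coding strand, with the codons for tryptophan, phenylalanine, glutamine and asparagine of the recognition helix in capitals.
Hoxb7, chr11:96150699-96150878, plus strand: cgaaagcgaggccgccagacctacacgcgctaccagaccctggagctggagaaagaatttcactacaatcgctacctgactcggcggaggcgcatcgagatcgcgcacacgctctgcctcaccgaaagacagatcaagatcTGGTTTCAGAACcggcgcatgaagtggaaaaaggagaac
Hoxc12, chr15:102768739-102768918, plus strand: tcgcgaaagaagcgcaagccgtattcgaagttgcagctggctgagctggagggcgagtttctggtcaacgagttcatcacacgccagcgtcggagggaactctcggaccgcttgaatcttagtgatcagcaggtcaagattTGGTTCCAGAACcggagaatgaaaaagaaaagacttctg
Hoxd12, chr2:74513900-74514079, plus strand: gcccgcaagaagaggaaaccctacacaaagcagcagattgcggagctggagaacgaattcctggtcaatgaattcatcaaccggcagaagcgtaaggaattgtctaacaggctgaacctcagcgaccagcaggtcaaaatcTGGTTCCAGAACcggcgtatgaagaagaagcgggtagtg
Hoxc12 and Hoxd12 were identical at 71.7% of these positions. The closest pair of all, Hoxa3 and Hoxb3, reached 93.9%. Hoxb3 had 0 counts in all 4 libraries and Hoxa3 had 32 to 71. Whether reads were placed on the wrong member was not tested.

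The libraries held 40524694 to 40977464 counts each. Hox genes took 2957 to 3146 of them, or 72.81 to 76.43 counts scaled by library size (CPM). Of the 40 rows, 23 passed edgeR's filter on low counts, which kept 16264 genes in all. Of the 17 rows that did not pass, 4 had no count in any library, namely Hoxb3, Hoxd4, Hoxd10 and the second Hoxa3 identifier (ENSMUSG00000059723), 99.9% of whose exon positions also belong to other Hox rows on the same strand. A count of 0 allows up to 3 counts by sampling, at most 0.0740 CPM, and this limit covers counting error only. Counts that fall on positions of more than 1 gene could be assigned to neither or to one of them, and the sources used here do not state which, nor the strand setting. Of the tested Hox genes, 15 shared no exon position with any annotated gene on either strand, Hoxc12 among them. Hoxb7 shared 26.2% of its exon positions with Hoxb8. The tested Hoxa3 identifier shared 53.5% with other annotated genes on either strand, its second identifier included. Hoxd4, with no count, shared 67.4% with Hoxd3.

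Coverage of the clusters was unequal. The filter kept 8 of 9 Hoxc genes, 6 of 11 Hoxa genes, 5 of 10 Hoxb genes and 4 of 9 Hoxd genes. By position it kept 6 of 12 genes in paralog groups 1 to 4, 6 of 11 in groups 5 to 8 and 11 of 16 in groups 9 to 13. The other Hoxa genes, Hoxa2, Hoxa4, Hoxa6, Hoxa11 and Hoxa13, had at most 17 counts in a library. In Hoxb, the genes Hoxb2, Hoxb5, Hoxb6 and Hoxb8 had 0 to 8 counts. Hoxb5 was the one of these with counts in a single line, 6 and 3 in WT_CTCF and 0 and 0 in MUT_CTCF mESCs, too few to test. In Hoxd, Hoxd11 and Hoxd12 had 0 to 7 counts and Hoxd3 had 11 counts in MUT_CTCF replicate 1 and 0 in the other libraries. Hoxc6 came closest to the filter among the Hoxc genes, with 27 and 9 counts in WT_CTCF and 8 and 5 in MUT_CTCF mESCs. Only 6 Hox genes averaged at least 100 normalized counts (counts scaled to the mean library), among them Hoxc13, Hoxb9, Hoxb13, Hoxc12 and Hoxc4.

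Levels were compared between genes per length, as CPM per kb of exon, and posterior genes of the Hoxc and Hoxb clusters led. The Hoxc13 level was 7.13 ± 0.031 CPM per kb in WT_CTCF and 6.39 ± 0.122 in MUT_CTCF mESCs (SD, n = 2 each). The next gene, Hoxb9, was at 6.47 ± 0.199 and 6.63 ± 0.238 (SD, n = 2), so that the order of these 2 genes was not the same in both lines. Hoxc12 stood at 5.23 ± 0.048 in WT_CTCF and at 3.46 ± 0.537 in MUT_CTCF mESCs (SD, n = 2). Hoxb13 followed at 2.93 ± 0.266 and 3.09 ± 0.233 CPM per kb (SD, n = 2), within the spread of Hoxc12 in MUT_CTCF but below it in WT_CTCF mESCs. Hoxc4 averaged 1.34 CPM per kb over the 4 libraries and Hoxc11 averaged 1.13, and of the other Hox genes reported here none reached 1 CPM per kb. Hoxc4 at 1.30 CPM per kb lay within the spread of Hoxc11 in WT_CTCF mESCs, 1.15 ± 0.413 (SD, n = 2), whereas in MUT_CTCF mESCs Hoxc4 at 1.38 was above Hoxc11 at 1.11 ± 0.255 (SD, n = 2) in both libraries. For scale, the pluripotency factor gene Sox2 averaged 215.3 CPM per kb.

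In the Hoxc cluster the mean level fell with each step from the posterior end inward, from 6.76 CPM per kb for Hoxc13 over the 4 libraries to 4.34 for Hoxc12, 1.13 for Hoxc11, 0.671 for Hoxc10, 0.497 for Hoxc9, 0.165 for Hoxc8 and 0.120 for Hoxc6. It was 0.176 for Hoxc5 and 1.34 for Hoxc4 at the anterior end. The cluster spans chr15:102751534-102867274 on the plus strand, from the start of Hoxc13 to the end of Hoxc4. The other clusters held no such run of neighbours. In Hoxb (chr11:96055630-96229570, plus strand), Hoxb9 and Hoxb13 were above 1 CPM per kb, Hoxb1, Hoxb4 and Hoxb7 were between 0.227 and 0.374, and the rest were at most 0.0395. In Hoxa (chromosome 6, minus strand), Hoxa7 stood at 0.724, with its neighbours Hoxa6 at 0.0152 and Hoxa9 at 0.234. In Hoxd (chr2:74506367-74603200, plus strand), Hoxd13 at 0.760 and Hoxd9 at 0.493 were separated by Hoxd10, Hoxd11 and Hoxd12 at 0 to 0.017 CPM per kb.

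**Figure D1:**
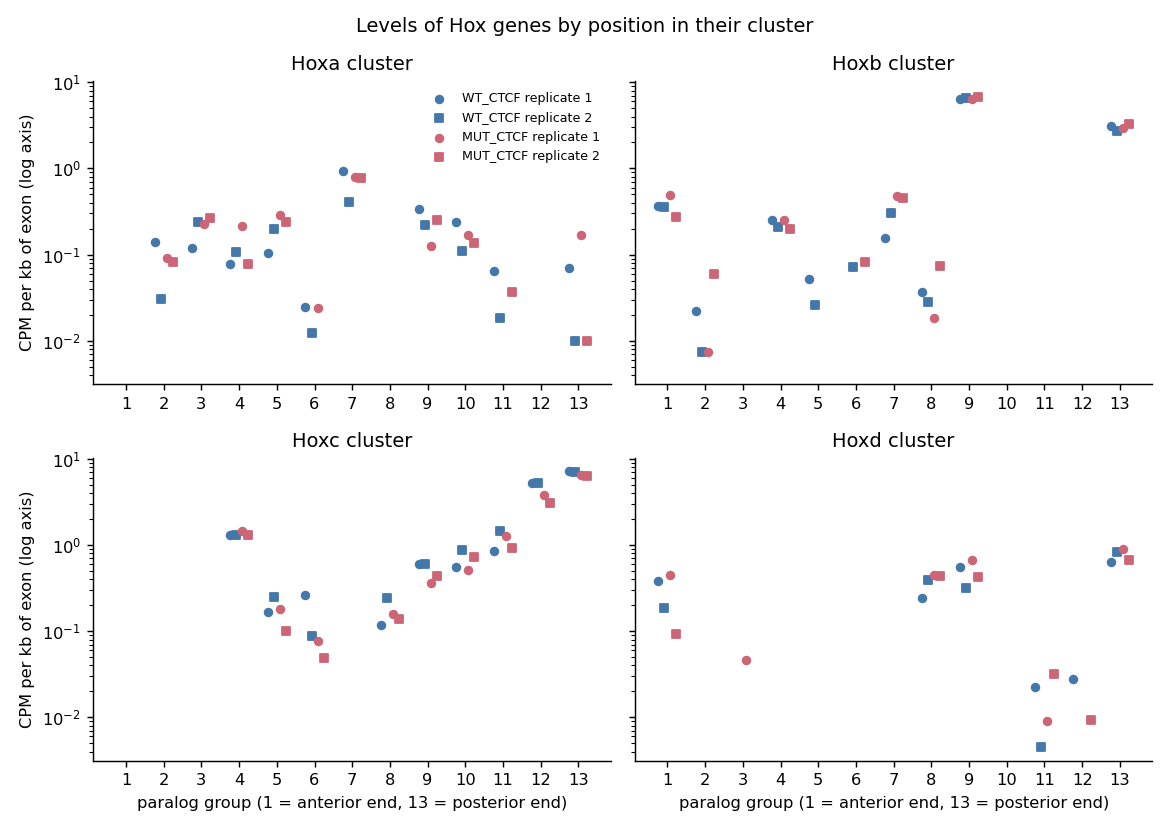
Levels in CPM per kb of exon (log axis) against the paralog group for the genes reported here, in 4 panels by cluster, with 1 point per library (blue WT_CTCF, red MUT_CTCF, circle replicate 1, square replicate 2), where values of 0 are not drawn. In the Hoxc panel the mean over the libraries climbs from Hoxc6 to Hoxc13, though not every single library follows each step, and Hoxc13 reached 7.13 CPM per kb in WT_CTCF mESCs, and in every cluster some points lie below 0.1 CPM per kb.

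No Hox gene passed the test between the lines. By edgeR's quasi-likelihood test with Benjamini-Hochberg adjustment over all 16264 genes, 0 of 23 tested Hox genes had an adjusted p under 0.05, against 3.17% of all genes tested. At an unadjusted p under 0.05 there were 2, Hoxc12 and Hoxb7, against 15.3% of all genes, and DESeq2 also called 0 at its adjusted p and gave the same 2 genes at an unadjusted p under 0.05. DESeq2 set no adjusted p for 20 of the 23. The study's own criterion combines p under 0.05 before adjustment with more than 2-fold change, and only Hoxb7 met it, against 1.3% of all genes. Without WT_CTCF replicate 2 both Hoxb7 and Hoxa3 met that criterion, and without any 1 of the other libraries no Hox gene did. The libraries are bulk samples, so that fewer cells with a transcript and less of it per cell cannot be told apart.

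Precision was limited for most members. The standard errors of the 23 log2 fold changes ran from 0.100 to 0.696 with a median of 0.383, against a median of 0.115 over all genes tested. The smallest belonged to Hoxb9 and Hoxc13, the genes with most counts. The 95% interval of Hoxb9 ran from -0.17 to 0.24 on the log2 scale, and that of Hoxa5, with 8 to 22 counts, from -0.61 to 2.18. For 12 of the 23 genes the interval reached a 2-fold difference in at least 1 direction, so that the interval did not exclude a difference of that size. For the other 11, among them Hoxb9, Hoxb13, Hoxc4, Hoxc12 and Hoxc13, it stayed within 2-fold.

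**Figure D2:**
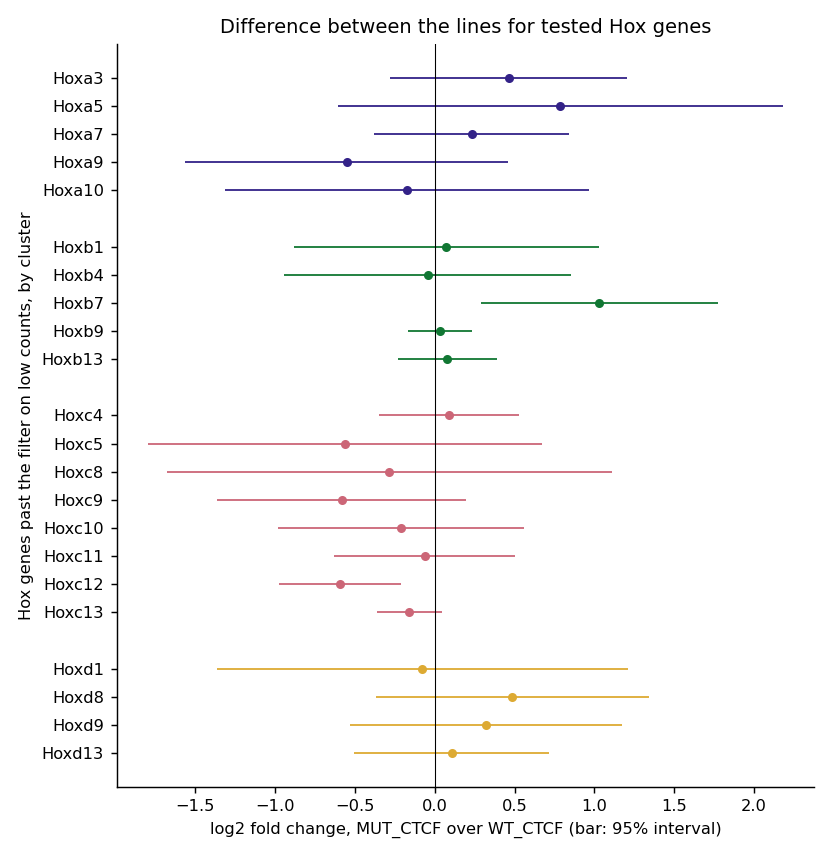
Log2 fold change of MUT_CTCF over WT_CTCF mESCs for the tested Hox genes reported here, ordered by cluster and from the anterior to the posterior end, with bars for the 95% interval. Intervals of Hoxb7 and Hoxc12 do not include 0, and 7 of the 8 Hoxc points lie below 0.

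The posterior Hoxc genes came out lower in MUT_CTCF mESCs without passing the test. Hoxc12, active in posterior structures and in hair follicles, had 221 and 218 counts in WT_CTCF and 163 and 129 in MUT_CTCF mESCs. Both MUT_CTCF libraries were below both WT_CTCF libraries, and the level was 1.51-fold lower, or -0.59 ± 0.191 (SE) as a log2 fold change, with an adjusted p = 0.0733 by edgeR's quasi-likelihood test. Hoxc13, known for its part in hair and nail formation, had 717 and 712 counts in WT_CTCF and 656 and 630 in MUT_CTCF mESCs, again without overlap, and a log2 fold change of -0.16 ± 0.101 (SE, adjusted p = 0.492 by the same test). Hoxc9, which acts in thoracic patterning, had 59 counts in each WT_CTCF library and 36 and 43 in those of MUT_CTCF, and its log2 fold change was -0.58 (adjusted p = 0.523). Between them in the cluster, Hoxc11 had 71 and 119 counts in WT_CTCF and 107 and 76 in MUT_CTCF mESCs. Hoxc10, of lumbar and hindlimb identity, had 43 and 69 against 40 and 57. The groups overlapped for both, and their log2 fold changes were -0.06 and -0.21. All 5 posterior Hoxc genes thus had a fold change below 0, and 3 of them had MUT_CTCF below WT_CTCF without overlap, as had 22.4% of all genes tested. Hoxc10 and Hoxc11 did not keep this direction. Without WT_CTCF replicate 2 their log2 fold changes were 0.17 and 0.36, that of Hoxc10 was 0.03 without MUT_CTCF replicate 1, and that of Hoxc11 was 0.155 without MUT_CTCF replicate 2.

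Nearer the anterior end, Hoxc8 had 11 and 23 counts in WT_CTCF and 15 and 13 in MUT_CTCF mESCs (log2 fold change -0.28), and Hoxc5 had 20 and 30 against 22 and 12 (-0.56). Hoxc4, the most anterior gene of the cluster, had 135 counts in each WT_CTCF library, and 153 and 135 with MUT_CTCF. The groups of Hoxc4 were apart only after scaling, since MUT_CTCF replicate 2 had the raw count of the WT_CTCF libraries, and the log2 fold change was 0.09. It was the single tested Hoxc gene with a value above 0.

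Hoxb7 had the largest fold change of the tested Hox genes, and the log2 fold changes of the other 4 tested Hoxb genes lay between -0.04 and 0.08. It had 26 and 50 counts in WT_CTCF and 80 and 76 in MUT_CTCF mESCs, so that MUT_CTCF was above WT_CTCF without overlap while the WT_CTCF libraries lay far apart. The level was 0.229 ± 0.102 and 0.467 ± 0.0125 CPM per kb (SD, n = 2), a 2.04-fold difference. On the log2 scale this was 1.03 ± 0.370 (SE, adjusted p = 0.128 by edgeR's quasi-likelihood test), and 0.63 without WT_CTCF replicate 1. Hoxb8, which overlaps Hoxb7 on the same strand, had 4 and 3 counts in WT_CTCF and 2 and 8 in MUT_CTCF mESCs and was too low to test. Hoxb9, with 664 and 693 counts against 685 and 711, differed by 0.04 ± 0.100 (SE) on the log2 scale. Hoxb13, at the posterior end and best known from prostate and tail, had 280 and 246 against 266 and 292 (log2 fold change 0.08). Hoxb1, a hindbrain gene that responds early to retinoic acid, had 35 and 34 counts in WT_CTCF and 47 and 26 in MUT_CTCF mESCs (0.07). Hoxb4, known from blood stem cells, had 43 and 35 against 43 and 33 (-0.04). The groups overlapped for all 4.

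In the Hoxa cluster, Hoxa3, Hoxa5 and Hoxa7 had fold changes above 0 and Hoxa9 and Hoxa10 below 0, each with a 95% interval that included 0. Hoxa3, a gene of pharyngeal organs, had 32 and 64 counts in WT_CTCF and 62 and 71 in MUT_CTCF mESCs (log2 fold change 0.46). Hoxa5, of lung and cervical identity, had 8 and 15 against 22 and 18 (0.79), and was the one Hoxa gene with both MUT_CTCF libraries above both WT_CTCF libraries. Hoxa7 had 108 and 48 counts in WT_CTCF and 94 and 90 in MUT_CTCF mESCs (0.23). Its WT_CTCF libraries lay on either side of the MUT_CTCF libraries, opposite in order to those of its paralog Hoxb7. Hoxa9, a regulator of blood progenitors, had 48 and 31 against 18 and 36 (-0.55), and Hoxa10, a gene of the uterus and posterior skeleton, had 37 and 17 against 27 and 21 (-0.18). Both of these overlapped between the lines.

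Of the Hoxd genes, Hoxd8 alone had groups that did not overlap, at 27 and 44 counts in WT_CTCF against 51 and 49 in MUT_CTCF mESCs. Its log2 fold change was 0.49, with a 95% interval from -0.37 to 1.34. Counts were 50 and 28 against 60 and 38 for Hoxd9 (log2 fold change 0.32, interval from -0.53 to 1.17). For Hoxd13, a gene of digits and the genital tubercle, they were 65 and 83 against 93 and 67, with an interval from -0.51 to 0.72. Hoxd1, at the other end, had 29 and 14 against 34 and 7, so that its MUT_CTCF libraries enclosed its WT_CTCF libraries (log2 fold change -0.08, interval from -1.36 to 1.21).

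**Figure D3:**
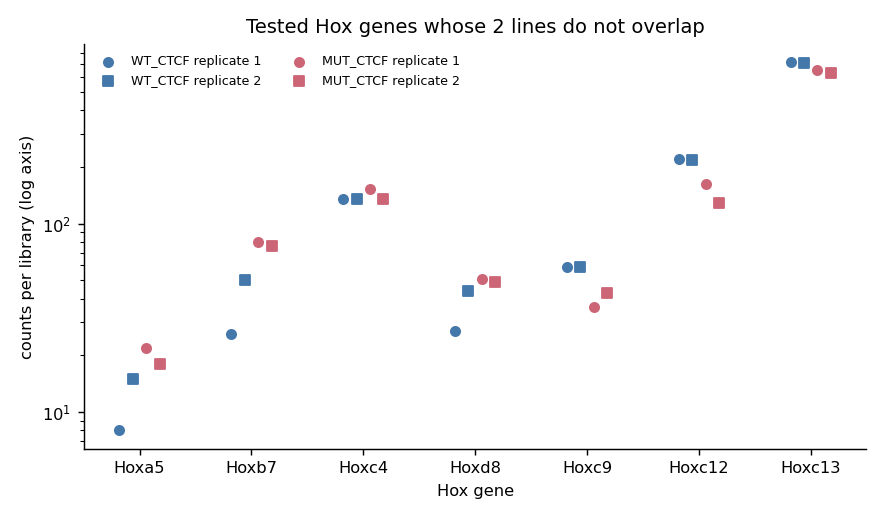
Counts per library (log axis) of the 7 tested Hox genes whose groups did not overlap after scaling, with WT_CTCF in blue and MUT_CTCF in red. The 4 genes at the left had MUT_CTCF above WT_CTCF and the 3 at the right below, and the raw counts of Hoxc4 meet at 135.

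Across the members the directions were about even. A log2 fold change above 0 was seen for 12 of 23 Hox genes, against 50.8% of all genes tested, and the median was 0.04 against 0.00 over all genes. The median turned to -0.13 when MUT_CTCF replicate 1 was left out, and became 0.155 when MUT_CTCF replicate 2 was. The MUT_CTCF libraries were both above the WT_CTCF libraries for 4 of 23 genes (Hoxa5, Hoxb7, Hoxc4 and Hoxd8), against 22.3% of all genes, and below for 3 (Hoxc9, Hoxc12 and Hoxc13), against 22.4%. Neither count exceeded the share over all genes.

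By cluster, the median log2 fold change was 0.17 in Hoxa with 4 of 6 tested genes above 0, 0.07 in Hoxb with 4 of 5, -0.25 in Hoxc with 1 of 8 and 0.21 in Hoxd with 3 of 4. By position, it was 0.08 in paralog groups 1 to 4 with 4 of 6 genes above 0, 0.36 in groups 5 to 8 with 4 of 6 and -0.16 in groups 9 to 13 with 4 of 11. The 7 genes below 0 in groups 9 to 13 were the 5 Hoxc genes with Hoxa9 and Hoxa10, whereas both tested Hoxb genes and both tested Hoxd genes there were above 0. MUT_CTCF was above without overlap for 3 of the 6 tested genes of groups 5 to 8, against 22.3% of all genes tested. These genes, Hoxa5, Hoxb7 and Hoxd8, came from 3 different clusters, and none of them passed the test. Genes of a cluster share their chromatin and are not replicates, and whether clusters or positions differ from each other was not tested.

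Summing all rows of a cluster gave a value that the deepest genes dominate. The Hoxc sum was 1306 and 1377 normalized counts in WT_CTCF and 1190 and 1105 in MUT_CTCF mESCs, 1342 ± 50.3 against 1147 ± 59.6 (SD, n = 2), or 14.5% lower, with both MUT_CTCF libraries below. Hoxc13 made up 54.5% of this sum, and the log2 ratio was -0.23 with it and -0.31 without it. The Hoxb sum was 1063 and 1074 against 1114 and 1167, or 6.77% higher with both MUT_CTCF libraries above, and Hoxb9 made up 62.3% of it. Its log2 ratio was 0.09 with Hoxb9 and 0.19 without. The Hoxa sum was 547.9 and 448.1 against 566.1 and 529.5, and the Hoxd sum was 179.3 and 170.4 against 248.8 and 169.8, each with overlapping groups. With 1 library left out at a time, the Hoxa ratio of 0.14 on the log2 scale ran from -0.00023 to 0.29, the Hoxb ratio from 0.061 to 0.127, the Hoxc ratio from -0.28 to -0.174 and the Hoxd ratio of 0.26 from -0.04 to 0.509. The sums are a description and were not tested. The smallest two-sided p that exact permutation of 2 against 2 libraries allows is 0.333.

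**Figure D4:**
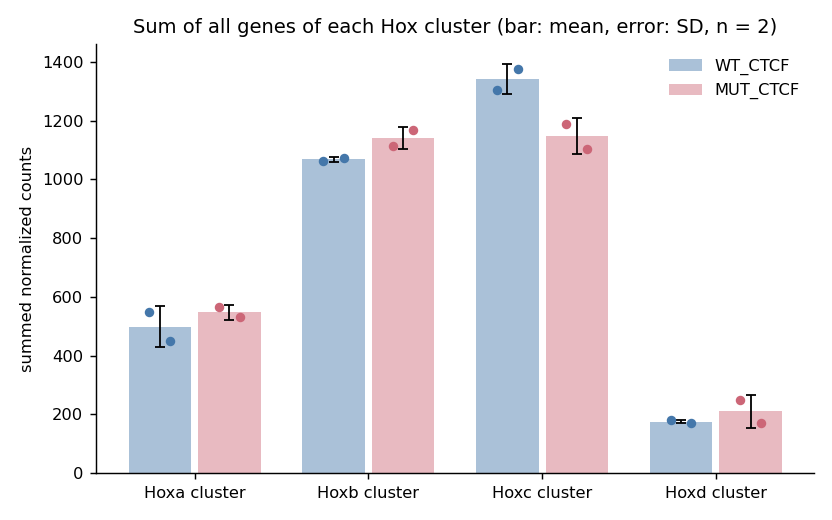
Summed normalized counts of each Hox cluster, with bars for the mean of 2 libraries, error bars for the SD and 1 point per library. The 2 MUT_CTCF points lie below the WT_CTCF points for Hoxc (1190 and 1105 against 1306 and 1377) and above them for Hoxb, and overlap with them for Hoxa and Hoxd.

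In the 250 bases upstream of the annotated gene start, Hox genes had a median GC content of 53.8% over 40 windows against 54.0% over 22375 protein-coding windows, a difference that was not tested, and held a median of 11 CG dinucleotides (2 to 41) against 8. The letters AGGGGGC, from the core of the CTCF motif, were found on either strand in 5 windows (Hoxa7, Hoxa9, Hoxa10, Hoxb9 and Hoxd13), or 12.5% against 10.7% of all windows of this length. A match of letters is a description and not a binding site.

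Genes that act with or upstream of the clusters were read from the same fit, and 2 of the caudal genes, Cdx1 and Cdx2, fell. Of 11 tested upstream regulators of Hox transcription, 0 rose and 2 fell at an adjusted p under 0.05, where 3.17% of all genes tested were called in either direction, and their median log2 fold change was -0.06. Cdx2, a caudal homeobox factor that activates central Hox genes and marks trophectoderm, had 274 and 298 counts in WT_CTCF and 133 and 159 in MUT_CTCF mESCs, and a log2 fold change of -0.97 ± 0.177 (SE, adjusted p = 2.27e-04 by edgeR's quasi-likelihood test). Cdx1, its relative, had 4393 and 4102 against 3471 and 3673 (-0.26, adjusted p = 4.85e-04). Groups did not overlap for either gene. The third caudal gene, Cdx4, had 21 and 29 counts against 22 and 17 (log2 fold change -0.36, adjusted p = 0.85). Of 9 TALE homeodomain genes, whose proteins bind DNA together with HOX proteins, 0 passed in either direction, and the smallest p-values were those of Meis2 (log2 fold change -0.21, adjusted p = 0.459) and Pknox2 (0.34, adjusted p = 0.478).

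Retinoic acid opens the anterior ends of the clusters. Of 17 tested genes of its pathway, 1 rose, Stra8, a retinoic acid target of the germ line, with 1422 and 1330 counts in WT_CTCF and 1677 and 1752 in MUT_CTCF mESCs (log2 fold change 0.31, adjusted p = 0.00495), and 0 fell. Of 26 Polycomb genes, whose products keep the clusters silent, 0 rose and 1 fell, Eed, a core subunit of the complex that methylates histone H3 at lysine 27, with 5381 and 5133 against 4824 and 4653 (log2 fold change -0.16, adjusted p = 0.0304). Of 14 genes of the Trithorax group and its partners, which counter Polycomb, 1 rose, Kdm6b, a demethylase of the same lysine, with 4930 and 5169 against 5815 and 5582 (0.17, adjusted p = 0.0126), and 0 fell. These calls are those of edgeR's quasi-likelihood fit. Without the filter on low counts none of the 5 genes, Cdx1 and Cdx2 included, passed (adjusted p 0.117 to 0.269), and none passed without MUT_CTCF replicate 1 (0.311 to 0.406) or MUT_CTCF replicate 2 (0.225 to 0.426). Without WT_CTCF replicate 1 the calls of Cdx2 and Stra8 held and without WT_CTCF replicate 2 those of Cdx1, Cdx2 and Kdm6b. Eed was also lost with DESeq2 (adjusted p = 0.0566) and with library size alone (0.0594). For Cdx2, DESeq2 set no adjusted p. The single call of each list among 17, 26 and 14 genes is to be read against the 3.17% called of all genes tested. Median log2 fold changes were 0.04, -0.02 and -0.04 for the retinoic acid, Polycomb and Trithorax lists and 0.08 for the TALE list. Of the 14 Trithorax genes, 10 had a log2 fold change below 0 and 4, Kdm6b included, above. Both MUT_CTCF libraries were below both WT_CTCF libraries for 8 of the 14, against 22.4% of all genes tested, and above for 2, against 22.3%. The genes next to or antisense in the clusters were low. Evx1, beside Hoxa13, had 19 and 17 counts in WT_CTCF and 19 and 12 in MUT_CTCF mESCs (log2 fold change -0.22, adjusted p = 0.928), Gm15051, a noncoding gene of the Hoxa cluster, had 44 and 45 against 34 and 49, and Evx2, beside Hoxd13, had 0 counts in every library.

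The label of embryonic stem cells was checked against marker genes. All 15 pluripotency markers measured passed the filter and summed to 8138 and 8168 CPM in WT_CTCF and 8022 and 8100 CPM in MUT_CTCF mESCs. Sox2 among them rose and Dppa2, Dppa4 and Dppa5a fell at an adjusted p under 0.05, against 3.17% called of all genes tested. Feeder fibroblasts express Hox genes, and of 15 of their markers 10 were tested and 0 passed, with Lum at 0 counts in all libraries. Their sums were 107.4 CPM in each WT_CTCF library against 108.4 and 124.2 CPM with MUT_CTCF. Of the 10 tested feeder markers, 8 had a log2 fold change above 0 and 2 below, with a median of 0.14. Summed levels ran from 45.1 to 48.5 CPM for 10 mesoderm and primitive streak markers with 0 calls. For 9 endoderm markers they ran from 19.6 to 26.8 CPM with 0 calls, and the highest value was that of MUT_CTCF replicate 2. Of the 7 tested endoderm markers, 6 had a log2 fold change above 0, against 50.8% of all genes tested. The other 1 was below 0, and the median was 0.30. For 8 neural markers the sums were 400.0 and 400.8 CPM in WT_CTCF and 361.3 and 368.7 CPM in MUT_CTCF mESCs, with Tubb3 lower in MUT_CTCF as the 1 call. For 8 trophectoderm markers the sums were 87.7 and 90.9 CPM against 81.0 and 86.3 CPM, with Cdx2 and Krt8 as the calls, both lower. The neural sum consisted mostly of Tubb3, and the other 3 tested neural markers, Nes, Pax6 and Zic1, had log2 fold changes above 0 (0.11, 0.45 and 2.12) without passing, so that the median of the list was 0.28. Of all these marker calls, none passed without the filter on low counts. Each was also lost without either MUT_CTCF library, and all but Tubb3 and Cdx2 without at least 1 of the WT_CTCF libraries. The calls of Dppa4 and Krt8 were lost with DESeq2 (adjusted p 0.0889 and 0.0777). They were also lost with library size alone in edgeR's quasi-likelihood test (adjusted p 0.0775 and 0.0509). The part of other cell types in the Hox values was not tested.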

How the data were processed

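Per the labels and the study's methods, the authors trimmed reads with Trim Galore 0.4.4, aligned them to mm9 with STAR and counted uniquely mapped reads per gene with HTSeq 0.9.1. The deposited counts of 4 libraries, 2 per line, carry no normalization. The methods call the libraries biological replicates, but the labels name no separate cultures, so p-values measure the spread between these libraries. The authors' edgeR table (log2 fold change, average log2 CPM, p-value and false discovery rate of their own comparison) was not used.

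Names, exons and homeoboxes came from GENCODE M1 and the NCBIM37 (mm9) genome, which named 37205 of 37620 identifiers. A homeobox was read as 180 coding bases. Genes past filterByExpr (minimum count 10, 16264 genes with 99.96% of the counts) were scaled by TMM and tested by glmQLFit and glmQLFTest in edgeR 4.0.16 (R 4.3.3) with the condition as the one term and Benjamini-Hochberg adjustment. The standard error is the log2 fold change divided by the root of F. The fit was tested on counts simulated with a common dispersion for all genes. That check does not cover genes whose replicates differ by more. Total counts were 40524694 to 40977464 per library. Replicates of a line differed by more than sampling noise (chi-square per gene 3.65 and 4.34).

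Alternatives were DESeq2 1.42.0, its size factors, library size alone, leaving out the filter or 1 library at a time, keeping genes with 10 or more reads in each library, and a replicate block. The members and the gene lists were chosen with earlier results of these data known. Every Hox gene entered the counts of genes, and all 23 Hox genes past the filter entered the fit. The values of 1 gene are not reported here, and the other Hox genes that passed the filter are given with their counts. From each list of cofactors, regulators and neighbours the genes with an adjusted p under 0.05, or else the 2 with the smallest p, were named, along with Cdx2, Evx1 and Evx2. Of the cell type markers, the genes that passed were named. From the lists, 12 genes without a matching symbol were not analysed here.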

Additional observations from a re-analysis of the deposited data

How the results depend on the processing

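The count of 0 Hox genes at adjusted p under 0.05 held under DESeq2's size factors, library size alone, no filter and the stricter filter. The smallest adjusted p-values of edgeR's quasi-likelihood test there were 0.0691 to 0.342. DESeq2 also gave 0, but it set no adjusted p for 20 of the 23 tested Hox genes, Hoxc12 and Hoxb7 among them. Its 0 is therefore no check for those genes. With the replicate block in edgeR's test the count was 1, Hoxc12 (log2 fold change -0.60, adjusted p = 0.0481), and no other Hox call changed. The labels share only replicate numbers, and deviations of same-numbered libraries did not move together (correlation -0.0192 over all tested genes, 0.0189 over genes of at least 100 reads). The count by the study's criterion, 1, ran from 0 to 2 with a library left out, and the median log2 fold change from -0.13 to 0.155. The Hoxb sum had a log2 ratio of 0.192 without Hoxb9.

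Of 228 values of single genes under the alternatives, 19 changed direction, all with a library left out. The ranges over libraries left out were -0.236 to 0.93 for Hoxa7, -0.628 to 0.487 for Hoxa10, -0.403 to 0.428 for Hoxb1, -0.236 to 0.124 for Hoxb4, -0.00297 to 0.0712 for Hoxb9, -0.00991 to 0.176 for Hoxb13, -0.718 to 0.339 for Hoxc8, -0.513 to 0.169 for Hoxc10, -0.386 to 0.359 for Hoxc11, -1.60 to 0.642 for Hoxd1, -0.0357 to 0.797 for Hoxd9 and -0.14 to 0.312 for Hoxd13. Hoxc12 ran from -0.763 to -0.446 and Hoxb7 from 0.634 to 1.58. A fit with 1 library left in a line assumes that this library varies like those of the other. Depth limits the 17 tested genes under 100 normalized counts, and 2 libraries per line limit all of them.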
